A study of Homo sapiens with 3 samples.

Results

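The transcripts described here are those of 8 genes of the actin cytoskeleton, namely the cytoplasmic actins ACTB and ACTG1 and the actin regulators CFL1, PFN1, MYH9, FLNA, ACTN4 and ACTN1. They were followed in an enhanced crosslinking immunoprecipitation (eCLIP) experiment on the splicing factor RBM17. The 8 genes were picked from the 10872 genes that held at least 1 cluster in replicate 2. ACTB was among them because its transcript holds the peak of highest fold in the list of reproducible peaks, so that value chose the gene and is given here as a description only.

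RBM17 eCLIP was carried out in K562, an established human chronic myeloid leukemia line that can make fetal and embryonic globins. For each replicate, cells were UV crosslinked at 400 mJ/cm2 and 254 nm, and RBM17 was pulled down with 10 µg of a mixture of antibodies to the endogenous protein from cells with no genetic change named in the labels. RNA from the 50 to 125 kDa gel region was sequenced as 75-base pairs of reads, and 2% of a lysate, cut from the same gel region without the pull-down, served as the size-matched input for both replicates. The replicates are called 1 and 2, as in the sample descriptions, and nothing in the labels says whether they came from separate cultures.

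Actin is built from a pool of monomers into filaments, and the cytoplasmic beta and gamma forms are made by nearly all cells. Cofilin and profilin control how fast filaments are taken apart and built, while filamin and the alpha-actinins tie filaments into networks and nonmuscle myosin II pulls on them. RBM17, also called SPF45, takes part in the recognition of 3' splice sites during early spliceosome assembly. Actin transcripts are among the most abundant messenger RNAs of most cell types, and the size-matched input serves to set such abundance against what the antibody brought down.

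3 kinds of values were available for these genes. Replicate 1 holds 137095 clusters, which are stretches of piled-up reads, each with a log2 fold over the input and a −log10 p. Replicate 2 holds 119066 clusters, each with a gene name and a number of reads but with no comparison with the input. The third list holds 866 reproducible peaks with 1 log2 fold and 1 −log10 p for both replicates together, from 3.01 to 7.17 on the log2 scale with a median of 3.80. No fold has a replicate error, since the pooled list gives a single value per peak and only replicate 1 has folds of its own. In replicate 2, 12 of 12 marker genes of K562 held a cluster, against 1 of 10 markers of other cell types (EPCAM, 11 reads). A held cluster is a loose measure, since reads of the K562 markers ran from 8 in HBA2 to 1553 in HBG2. The clusters of HBG2 and HBE1 were spread over spans of 251347 and 236973 bases.

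ACTB and ACTG1 encode nearly the same protein, and a read can be placed on one or the other only by the bases in which the genes differ. Their coding sequences are 1128 bases long each, and 1029 of these positions hold the same base (91.2%). The first 30 bases of each coding sequence are shown because they include the codons in which the beta and gamma proteins differ most. Capitals mark the 6 bases that differ. Both sequences are from GENCODE release 44 on hg38, minus strand, 5' to 3', from chr7:5529628-5529657 and chr17:81512325-81512354.
ACTB: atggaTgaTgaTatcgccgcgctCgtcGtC
ACTG1: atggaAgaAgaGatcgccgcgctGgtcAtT
The longest stretch of coding sequence without a difference is 59 bases, at coding bases 832 to 890, which is shorter than a 75-base read. Any 75 consecutive coding bases held at least 2 differences, with a median of 6. Read lengths after trimming are not known here, and a read of 59 bases or fewer could lie wholly within the identical stretch. Assignment of coding reads to one actin or the other therefore rests on few bases, and whether any were placed on the wrong gene was not tested.

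Of the 8 genes, 3 held a reproducible peak. These were ACTB with 9 peaks, ACTG1 with 2 and FLNA with 2, and the remaining 5 genes held none. Across all genes, 4.07% had a reproducible peak within the span of their replicate 2 clusters, and the share was 16.3% among the 2379 genes with at least 100 reads in replicate 2. The 13 peaks made up 1.5% of the list, and ACTB alone 1.04%. In replicate 1, 42 of the 179 clusters in these genes (23.5%) had a log2 fold and a −log10 p of at least 3 each, called enriched below, against 5.35% of all clusters. The enriched clusters lay in 5 genes, ACTB with 19, FLNA with 12, ACTG1 with 6, MYH9 with 4 and ACTN4 with 1, where 16.2% of all genes and 44.4% of those with at least 100 reads held one. CFL1, PFN1 and ACTN1 held none. ACTB, which was chosen for its peak of highest fold, thus held 19 of the 42 enriched clusters and 9 of the 13 peaks. The shares of the group are therefore a description of picked genes only. Every cluster and peak within the 8 spans lay on the strand of its gene.

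**Figure D1:**
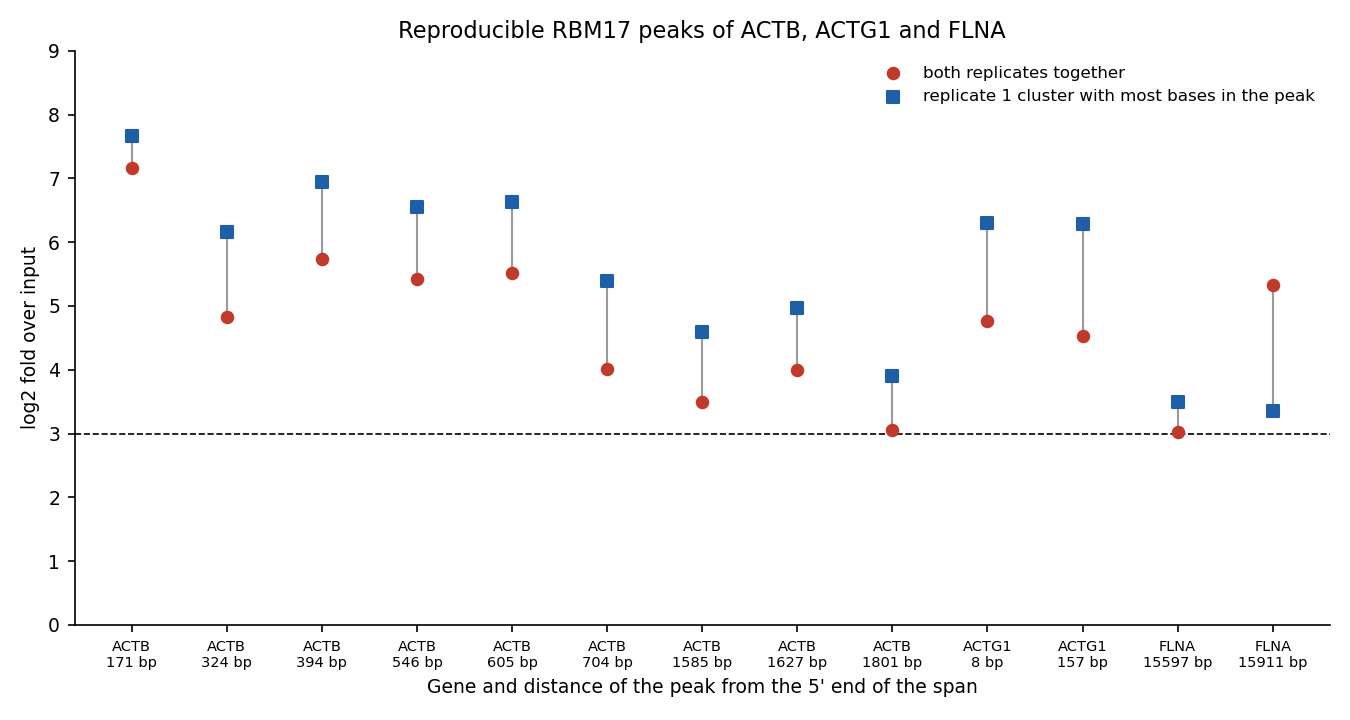
Log2 fold over the input of the 13 reproducible peaks, in order of position from the 5' end within ACTB, ACTG1 and FLNA, with the authors' pooled value and the value of the overlapping replicate 1 cluster drawn side by side. The replicate 1 value lies above the pooled value at 12 of the 13 peaks and below it at 1 peak, in FLNA.

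ACTB, on the minus strand of chromosome 7, carried the strongest RBM17 signal of the group. Its replicate 2 clusters spanned 3309 bases, from 5566874 to 5570182 in hg19, and held 1218 reads in 19 clusters, which placed it at rank 64 of 10872 genes. Of its 25 replicate 1 clusters, 19 (76.0%) were enriched. The median log2 fold of the 25 clusters was 5.01, above that of 99.9% of the 5626 genes with at least 5 replicate 1 clusters, whose median was 1.41. 4 ACTB clusters reached the limit of 400 that the −log10 p values take, which 0.097% of all clusters did.

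The enrichment of ACTB lay toward the 5' end of its span, which starts at the 5' edge of its replicate 2 clusters and not at a measured transcript start. When the span was cut into 3 equal parts, 14 of 15 replicate 1 clusters were enriched in the part nearest the 5' end, with a median log2 fold of 6.27. The middle part held 4 enriched of 6 clusters, with a median of 4.25, and the part nearest the 3' end held 1 of 4, with a median of 0.38. The reproducible peaks followed the same order, with 6, 3 and 0 in these parts. The reads of replicate 2 were spread more evenly, with 44.6%, 34.3% and 21.1%.

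The peak of highest fold lay at 5569978 to 5570044, with its middle 171.5 bases from the 5' end of the span. Its pooled log2 fold was 7.17, or 144-fold, with a −log10 p of 25.9. 3 abutting replicate 1 clusters covered this peak, with log2 folds of 7.66, 8.41 and 7.82, and in replicate 2 the same interval held 73 reads. The value of 8.41, at 5570007 to 5570032, was the highest of any cluster in the 8 genes. The next highest pooled log2 fold in the whole list, in another gene, was 6.58.

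A run of 5 further peaks followed downstream. The peaks at 5569823 to 5569894 and 5569754 to 5569822 had pooled log2 folds of 4.83 and 5.74, replicate 1 folds of 6.16 and 6.94, and a shared replicate 2 cluster of 84 reads. The peaks at 5569608 to 5569664 and 5569550 to 5569604 had pooled values of 5.42 and 5.52, replicate 1 values of 6.55 and 6.63, and 74 and 32 reads. The last of the run, at 5569441 to 5569516, had a pooled value of 4.01, a replicate 1 value of 5.39 and 45 reads. The study's annotation places the peak at 5569754 to 5569822 and those upstream of it in a proximal intron. That at 5569608 to 5569664 carries both labels, proximal intron and 5'-UTR. Those at 5569550 to 5569604 and 5569441 to 5569516 are in the 5'-UTR.

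The other 3 peaks of ACTB lay 1585.5 to 1801 bases from the 5' end and had lower folds. Those at 5568583 to 5568611 and 5568529 to 5568582 had pooled log2 folds of 3.49 and 3.99, replicate 1 folds of 4.59 and 4.96, and a shared replicate 2 cluster of 73 reads. The peak at 5568358 to 5568405 had a pooled value of 3.06, just inside the list, a replicate 1 value of 3.90 and 54 reads. In the study's annotation the former are in a proximal intron, and the last is at a 3' splice site.

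6 ACTB clusters of replicate 1 were not enriched. The lowest log2 fold, −1.83, was at the 3' end (5566917 to 5566923), where the overlapping replicate 2 cluster held 83 reads, more than the 73 reads over the peak of highest fold. Abutting clusters could differ widely, as at 5569008 to 5569045, where the log2 fold was 2.18, and at 5569046 to 5569092, where it was 6.63. Reads and folds, which come from different replicates, thus did not rise together at every place, although clusters of 84 and 74 reads lay over log2 folds of 6.94 and 6.55.

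**Figure D2:**
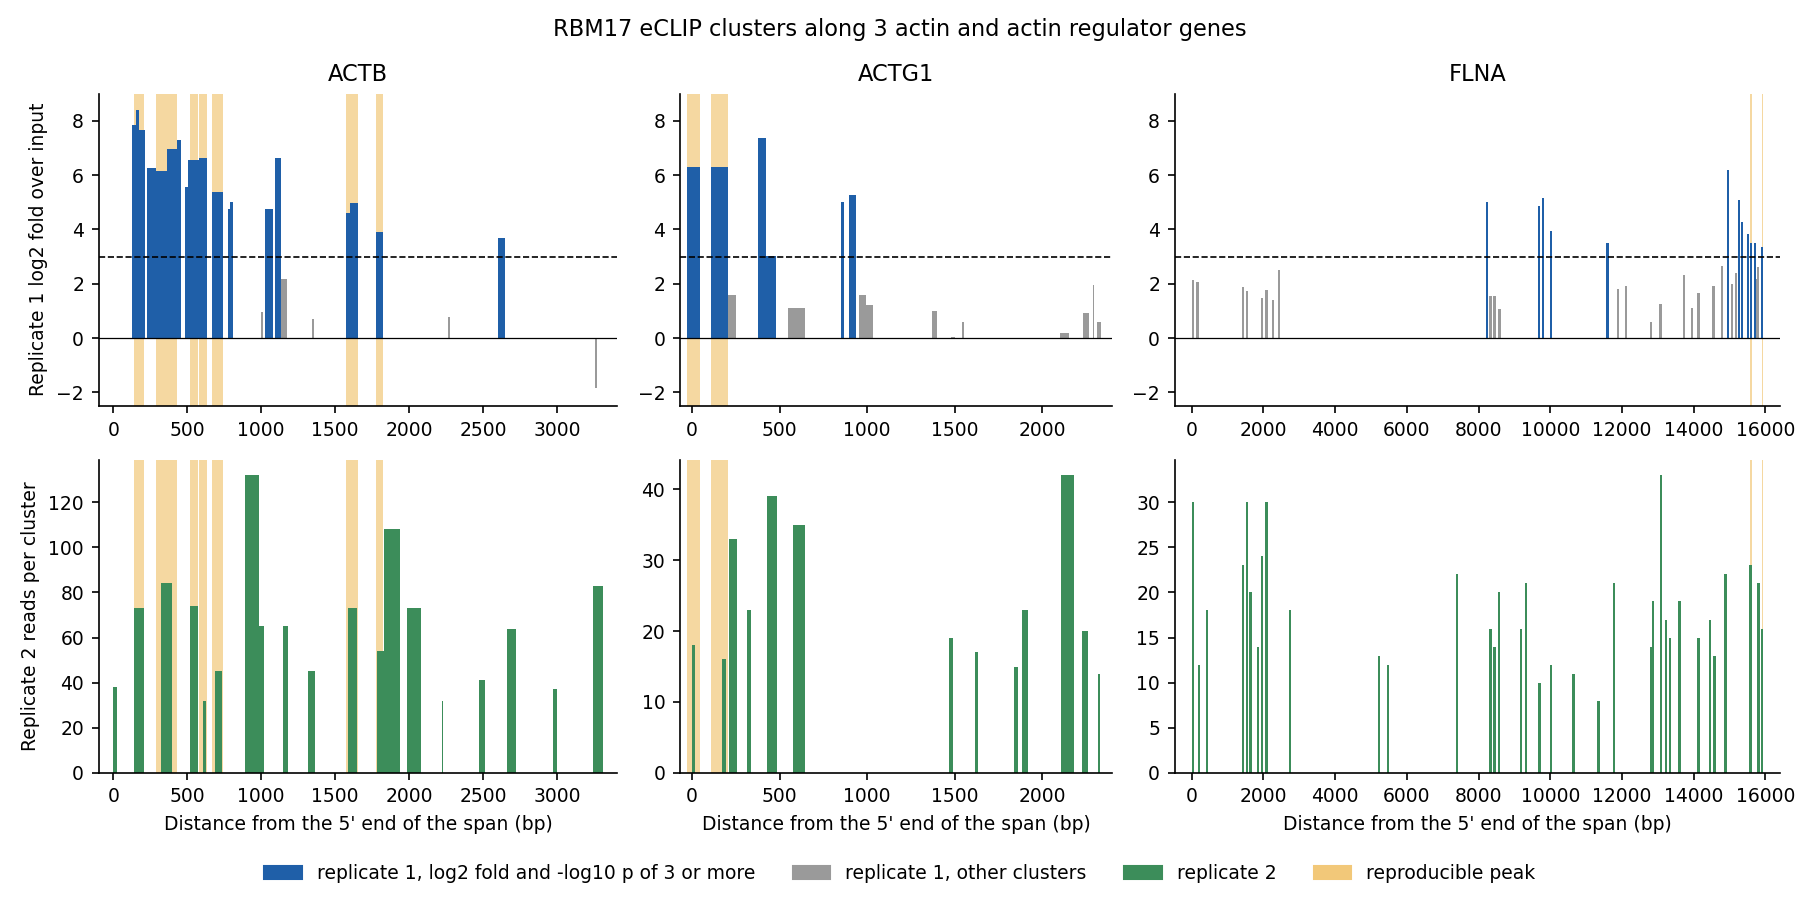
Log2 fold of each replicate 1 cluster and reads of each replicate 2 cluster along the spans of ACTB, ACTG1 and FLNA, by distance in bases from the 5' end, with the reproducible peaks marked. Enriched clusters crowd at the 5' end in both actins, while in FLNA both peaks sit near the 3' end.

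Most replicate 2 reads of ACTB lay in clusters that overlapped no peak. The peaks covered 527 of the 3309 bases of the span. The 7 clusters that overlapped a peak held 435 of 1218 reads, or 35.7% (exact 95% interval 33 to 38.5, for counting error only). Their median was 73 reads, against 64.5 in the other 12 clusters, and the ranges of 32 to 84 and 32 to 132 reads overlapped. The cluster of most reads, with 132 at 5569196 to 5569291, overlapped no replicate 1 cluster, nor did that with 108 reads at 5568247 to 5568351. Conversely, 8 of the 19 enriched replicate 1 clusters overlapped no replicate 2 cluster, among them that at 5569727 to 5569753 with a log2 fold of 7.30.

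ACTG1, on the minus strand of chromosome 17 (79477270 to 79479598), had fewer reads and fewer enriched clusters than ACTB, also with the enriched ones toward the 5' end. It held 314 reads in 13 clusters of replicate 2. The ratio of ACTB to ACTG1 reads was 3.88 (exact 95% interval 3.42 to 4.41, for counting error only), and 4.11 per kilobase of spliced transcript. Of its 17 replicate 1 clusters 6 were enriched (35.3%), 4 of them among the 6 clusters nearest the 5' end and none among the 4 nearest the 3' end. The median log2 fold over the gene was 1.57, above that of 56.9% of genes, and no cluster lay below 0.

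The −log10 p of its reproducible peaks was 4.96 and 4.84, so that ACTG1 held none when a value of 5 was asked for. Both peaks lay at the 5' end of the span, in the 5'-UTR by the study's annotation. The peak at 79479552 to 79479629 had a pooled log2 fold of 4.77, a replicate 1 fold of 6.31 and 18 reads in replicate 2. That at 79479393 to 79479489 had a pooled value of 4.53, a replicate 1 value of 6.28 and 16 reads. The middle of the first was 8 bases from the 5' end of the span and that of the second 157.5 bases, beside 171.5 bases for the first peak of ACTB. These distances are from the edges of replicate 2 clusters, not from transcript starts, and the first ACTG1 peak ran past that edge, at 79479598. The highest replicate 1 fold of ACTG1, 7.37 at 79479179 to 79479222, belonged to no reproducible peak. Next to it, the cluster at 79479119 to 79479178 had a log2 fold of 3.02, the lowest among the enriched clusters of the 8 genes. The 42 reads of its largest replicate 2 cluster, near the 3' end, stood over a replicate 1 cluster with a log2 fold of 0.18.

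FLNA encodes filamin A, a large protein that crosslinks filaments and anchors them to the membrane. Its span on the minus strand of chromosome X (153579235 to 153595159) held 659 reads in 36 replicate 2 clusters, at rank 174 of all genes. Of 36 replicate 1 clusters 12 were enriched (33.3%), with a median log2 fold of 2.16 over the gene, above that of 85.1% of genes, and none lay below 0. Here the enriched clusters were away from the 5' end, with 0 of 8 in the part nearest to it, 4 of 7 in the middle part and 8 of 21 in the part nearest the 3' end. The median log2 folds of these parts were 1.83, 3.94 and 2.38. They were highest in the middle and lowest at the 5' end of the span, where those of the actins were highest. As in the actins, the span starts at a replicate 2 cluster and not at a transcript start. In FLNA it covers 15925 bases, beside 26111 for the annotated gene. The reads of replicate 2 were shared out as 35.2%, 21.7% and 43.1%.

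The FLNA peaks were the last in its span. That at 153579235 to 153579261, at a 5' splice site by the study's annotation, had a pooled log2 fold of 5.34, a replicate 1 fold of 3.36 and 16 reads in replicate 2. It was the only one of the 13 peaks at which the pooled value lay above that of replicate 1. The peak at 153579535 to 153579589, placed in a proximal intron by the study, had a pooled value of 3.03, just inside the list, a replicate 1 value of 3.49 and 23 reads. The highest replicate 1 fold of FLNA, 6.19 at 153580183 to 153580230, was in no reproducible peak. Of the 659 reads 39 (5.92%, exact 95% interval 4.24 to 8.0) lay in clusters that overlapped a peak, against 34 of 314 (10.8%, 7.62 to 14.8) in ACTG1.

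CFL1 and PFN1 stood at the other end. CFL1 encodes cofilin 1, which severs filaments, and PFN1 encodes profilin 1, which feeds monomers to growing ends. CFL1 on chromosome 11 (65622329 to 65625637, minus strand) held 175 reads in 10 replicate 2 clusters, and 9 of its 10 replicate 1 clusters had a log2 fold below 0, from −3.47 to 0.77 with a median of −1.41. Only 0.302% of the genes with at least 5 clusters had a lower median. The transcript was therefore detected in both replicates but was poorer in the RBM17 library of replicate 1 than in the input, over nearly all its clusters.

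PFN1 on chromosome 17 (4849034 to 4851795, minus strand) held 138 reads in 5 replicate 2 clusters and 8 replicate 1 clusters with a median log2 fold of −0.40. Its clusters thus lay on both sides of 0. The 3 that overlapped a replicate 2 cluster had log2 folds of −2.64, −2.54 and −2.18, and the 5 others, which overlapped none, had −2.00, 1.19, 1.51, 1.60 and 2.51. The highest of these had a −log10 p of only 0.981. In the 8 genes together 23 of 179 clusters (12.8%) lay below 0, close to the 11.4% of all clusters, and 13 of the 23 were in CFL1 and PFN1.

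**Figure D3:**
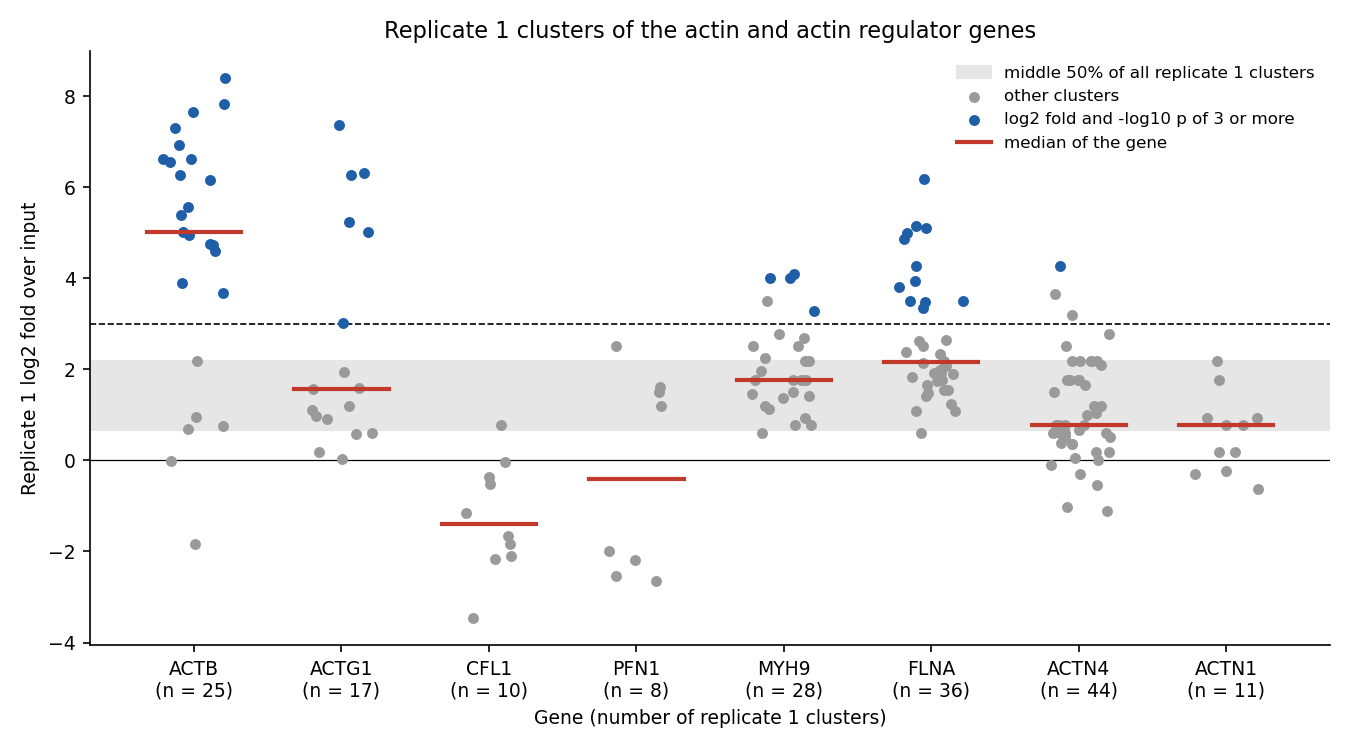
Log2 fold over the input of every replicate 1 cluster of the 8 genes, 1 point per cluster, with the median of each gene and the level of 3 used to call a cluster enriched. The ACTB clusters sit highest, with a median of 5.01, and those of CFL1 lowest, with a median of −1.41.

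MYH9, ACTN4 and ACTN1 have long genes in which few reads were spread over wide spans. MYH9 encodes the heavy chain of nonmuscle myosin IIA, and its span of 97532 bases on chromosome 22 (36684369 to 36781900, minus strand) held 111 reads in 18 replicate 2 clusters. 4 of its 28 replicate 1 clusters (14.3%) were enriched, with log2 folds of 3.28, 4.00, 4.00 and 4.10 and −log10 p values of at most 3.85. All 4 lay in the part of the span nearest the 3' end, which held 23 of the 28 clusters. None of the 4 overlapped a replicate 2 cluster, and of all 28 only 2 did. A cluster at 36716209 to 36716226 had a log2 fold of 3.51 but, with a −log10 p of 2.39, was just outside the call.

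ACTN4 and ACTN1 encode the nonmuscle alpha-actinins, which bundle filaments. ACTN4, the only member on the plus strand (chromosome 19, 39138326 to 39220379), held 214 reads in 25 replicate 2 clusters and 1 enriched cluster of 44 in replicate 1 (39199394 to 39199467, log2 fold 4.28). 2 further ACTN4 clusters had log2 folds of 3.65 and 3.19 with −log10 p values of 2.68 and 1.81, outside the call. ACTN1 on chromosome 14 (69346559 to 69443601, minus strand) had the fewest reads of the group, 67 in 16 clusters, and none of its 11 replicate 1 clusters was enriched, with a highest log2 fold of 2.19. The median log2 fold was 0.77 in both genes, above that of 19.4% of genes.

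Folds of sparse clusters take few different values. The 10 commonest log2 folds of replicate 1 were shared by 56.7% of all its clusters. Among the members this held for 24 of 44 clusters in ACTN4, 16 of 28 in MYH9 and 8 of 11 in ACTN1, but for 0 of 25 in ACTB and 1 of 17 in ACTG1. None of the 42 enriched clusters had one of these values. The call itself asks for a log2 fold of at least 3, so this does not show that enriched folds escape the limit. In MYH9 the enriched clusters at 36689893 to 36689909 and 36701244 to 36701293 had the same log2 fold, 4.00.

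Levels in replicate 2 were set side by side per kilobase of spliced transcript, which does not allow for reads in introns. ACTB had 672 reads per kilobase (exact 95% interval 635 to 711, for counting error only), far above the others. PFN1 with 171 (144 to 202), ACTG1 with 164 (146 to 183) and CFL1 with 141 (121 to 163) followed, with intervals that overlapped. FLNA had 77.5 (71.7 to 83.6) and ACTN4 42.9 (37.3 to 49.0), each apart from its neighbours. ACTN1 with 18 (14.0 to 22.9) and MYH9 with 14.9 (12.3 to 17.9) overlapped. PFN1, ACTG1 and CFL1 thus had like read levels by this measure, but not per kilobase of span, with 50.0, 135 and 52.9 reads. Their median log2 folds in replicate 1 were −0.40, 1.57 and −1.41, and the numbers of enriched clusters were 0, 6 and 0.

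**Figure D4:**
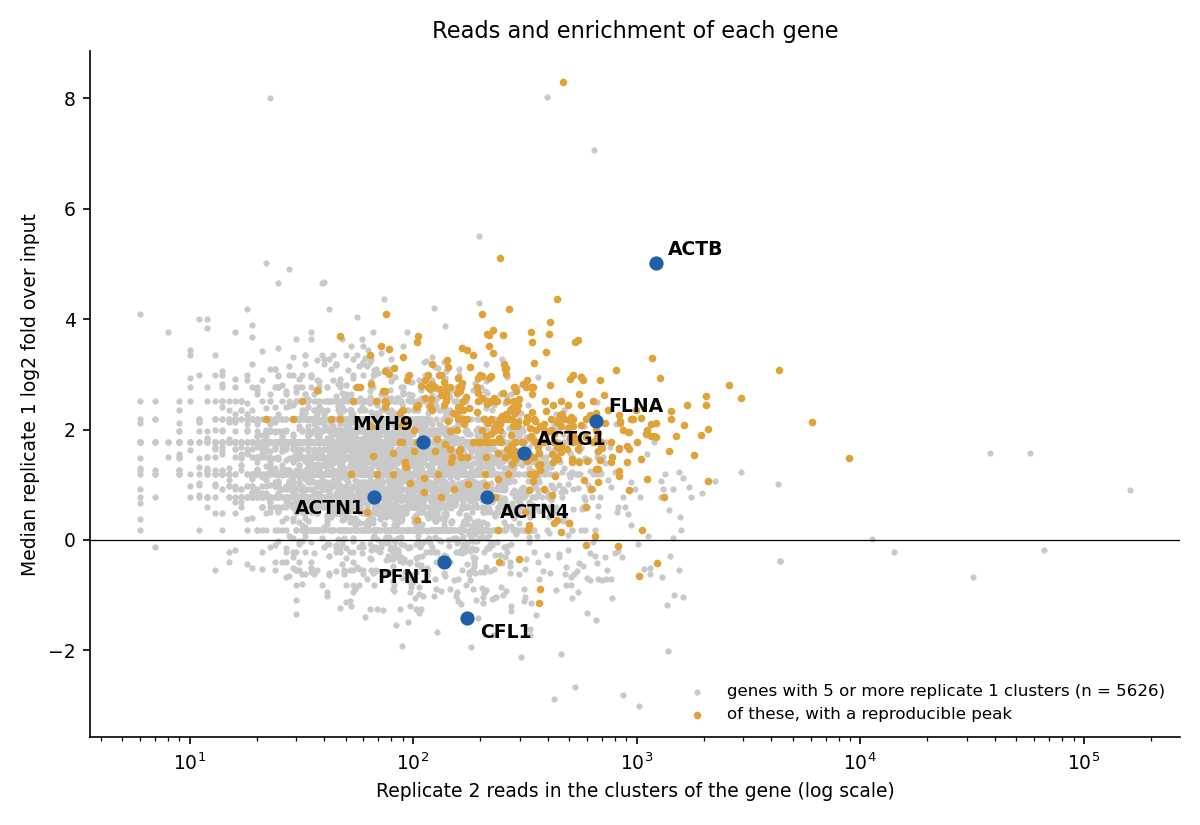
Replicate 2 reads against the median replicate 1 log2 fold per gene, on a log axis for reads, for all genes with at least 5 replicate 1 clusters in grey, those of them with a reproducible peak in orange and the 8 members by name. ACTB lies at the top right, and CFL1 and PFN1 lie below 0 at read numbers of 175 and 138.

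Overlap of the replicates also varied among the members. In CFL1 10 of 10 replicate 2 clusters overlapped a replicate 1 cluster, in ACTB 11 of 19, in ACTG1 9 of 13, in PFN1 3 of 5 and in FLNA 17 of 36. The long genes had less overlap, with 9 of 25 clusters in ACTN4, 4 of 16 in ACTN1 and 2 of 18 in MYH9. Of the 42 enriched replicate 1 clusters 18 overlapped a replicate 2 cluster, 11 in ACTB, 4 in FLNA and 3 in ACTG1, and 24 did not. The share of all clusters that overlap between the replicates was not counted. Whether the overlap in these genes is usual for the series is therefore not known.

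Relatives of the actins held few clusters except for POTEE. None of the 5 other actin genes, the muscle forms ACTA1, ACTA2, ACTC1 and ACTG2 and the actin-like ACTBL2, had a replicate 2 cluster. Of 49 annotated actin pseudogenes and POTE genes, the latter a family of which some members carry an actin copy, 6 had a cluster. POTEE held 204 reads in 12 clusters, more reads than CFL1, PFN1, MYH9 or ACTN1, and 1 enriched of 25 replicate 1 clusters (log2 fold 3.44), and POTEF 13 reads and 1 enriched of 4 (4.00). POTEI and POTEKP held 9 reads each, ACTBP2 5 and ACTG1P17 3, and no reproducible peak lay in any of the 6. An enriched cluster was thus found in 2 of the 6, beside 16.2% of all genes and 44.4% of those with at least 100 reads, such as POTEE. Its 1 enriched of 25 stands beside 5.35% of all replicate 1 clusters. Since these sequences resemble the actins, reads could be split among them, and that was not tested.

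The wider actin machinery was described by a list of 80 further genes, of which 68 had a replicate 2 cluster. A reproducible peak was found in 4 of the 68 (5.88%, beside 4.07% of all genes and 16.3% of those with at least 100 reads). These were TMSB4X, encoding the monomer-binding thymosin beta 4, with a log2 fold of 3.84, ARPC4, a subunit of the filament-branching ARP2/3 complex, with 3.48, FLNC, the muscle filamin, with 3.35, and CTTN, encoding cortactin, with 3.32. These values lay near or below the 3.80 that was the median of the whole list of peaks. An enriched replicate 1 cluster was found in 22 of the 68 (32.4%). The share was 16.2% among all genes and 44.4% among those with at least 100 reads. The 68 genes held a median of 64.5 replicate 2 reads, against 33 in all genes. Whether the list differs from other genes of like read numbers was not tested.

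By role, enriched clusters were found in 3 of 4 tropomyosin genes with a replicate 2 cluster and 3 of 5 genes of capping. The numbers were 4 of 11 for monomer binding and turnover, 4 of 16 for crosslinking and membrane links and 3 of 11 for signalling. They were 2 of 8 for nucleation, 2 of 4 for nonmuscle myosin and 1 of 9 for the ARP2/3 complex. Beside them stand 16.2% of all genes and 44.4% of those with at least 100 reads. Reads differed widely within a role, as from 8 in TPM2 to 247 in TPM3, and a difference between roles was not tested. The most reads were held by DIAPH1, a formin that elongates filaments, with 491, SPTBN1, a spectrin of the membrane skeleton, with 434, CTTN with 385, ARPC4 with 370 and VCL, the adhesion protein vinculin, with 283. Each of these stood below the 1218 reads of ACTB and the 659 of FLNA. The median log2 fold of replicate 1 was below 0 in 4 genes of the list, ACTR2 (−0.14), ARPC5 (−0.53), FSCN1 (−0.72) and MYL12A (−0.98), and none was as low as CFL1.

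The genes nearest to ACTB by numbers of replicate 2 reads and replicate 1 clusters, compared as a Euclidean distance on the log2 scale over the 2 samples, included SRSF1, EEF2, DGCR8 and SNHG3, at distances of 0.117 to 0.222. They held 1125 to 1414 reads and 23 to 28 replicate 1 clusters. Their enriched clusters numbered 7, 6, 2 and 0 in the same order, against 19 in ACTB, and their reproducible peaks 3, 0, 4 and 0, against 9. The highest pooled log2 fold among these 4 was 5.72, in the splicing factor gene SRSF1.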

How the data were processed

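The authors trimmed and aligned the reads (cutadapt and STAR, per the submitters' processing notes; versions not given in the sources used here) and ran an eCLIP pipeline. Some chromosome 1 positions lie beyond its end in hg38, so the build was taken as hg19. The values the authors deposited for replicate 1 and for the reproducible peaks are, per interval, the −log10 p and the log2 enrichment against the input. For replicate 2 they deposited the peak caller's p-value, with a gene and a read count in each name. Depth in total reads is unknown for replicate 1 and the peaks. The input had no file used here.

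Python 3.11.15 with pandas 2.3.3, numpy 2.4.6, scipy 1.17.1 and matplotlib 3.10.9 was used. The gene of a replicate 2 cluster was the Ensembl gene in its name, with symbols from GENCODE release 44. Replicate 1 clusters and peaks were counted by at least 1 bp of same-strand overlap with the span of a gene's replicate 2 clusters. Overlap counting was tested on simulated data. Since the genome used here is hg38, no peak sequence was read.

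The members and lists were chosen with earlier results of these data known. All members were named. Of other actins, pseudogenes and POTE genes those with a cluster were named, of the pathway list those with a peak plus the 5 with most reads, and the 5 genes nearest to ACTB, of which 1 is not reported here. Pathway genes with a median below 0 were named after their values were seen. With 1 group of 2 samples no test was made. Alternatives were stricter thresholds, other overlap rules and each replicate alone.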

Additional observations from a re-analysis of the deposited data

How the results depend on the processing

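Of 20 alternatives 13 left a count within 1.5 times the reported one or a value unchanged, 7 moved it and none reversed it. The number of members with a peak or call, 3 in the reproducible list, ranged from 5 to 6 when a replicate was left out, with 5 members called from replicate 1 alone and 6 from replicate 2 alone by a peak caller p of at most 1e-10, because each replicate then has a call rule of its own. When replicate 1 clusters had to overlap a replicate 2 cluster of the gene, the enriched clusters fell from 42 to 18, the members that held one from 5 to 3 and the median log2 fold of ACTB became 5.39, since fewer clusters are counted. Pathway genes with a peak went from 4 to 0 when the log2 fold had to reach 4, and likewise to 0 when the −log10 p had to reach 5. Under these thresholds the 13 peaks of the members became 9 and 10, the 9 of ACTB became 6 and stayed 9, and the 3 members with a peak stayed 3 and became 2, without ACTG1. The 42 enriched clusters became 30 and 37 under the same thresholds for replicate 1. No paired analysis was possible because there is 1 group of eCLIP samples and the input has no file used here. The 2 eCLIP samples give no replicate error for a fold, and read intervals cover counting error only.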
